A study of Homo sapiens with 6 samples.

Results

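The core pluripotency factors were followed as 10 genes in PA-1 cells, an established human teratocarcinoma line derived from the ovary: POU5F1, SOX2, NANOG, PRDM14, SALL4, ZFP42, DPPA4, TDGF1, DNMT3B and KLF4. They were taken from the expression table by symbol. All 10 were found among its 20494 genes, and 6 of them were among the 11881 genes with a mean of at least 1 RPKM over the libraries. RPKM is the number of reads divided by the length of the gene and by the total of the library, so levels of different genes can be set side by side per length. The table holds 6 RNA-seq libraries with 1 library per group. Cells given 200 ng of the ligand Wnt3a were collected after 16 h. Cells transfected with 8 µg of a RIPK1, RIPK2, RIPK3 or RIPK4 plasmid, each encoding a member of the receptor-interacting protein kinase family, were collected after 48 h. Vector cells took the same amount of pCDNA3.1 for 48 h, and they served as the reference for every comparison. Whether a plasmid also went into the Wnt3a cells is not stated, and their collection time differed from that of Vector, so ligand, time and transfection cannot be told apart in that comparison.

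OCT4 (the product of POU5F1) and SOX2 bind DNA side by side at joint sites and, with NANOG, form the transcription factor core that holds embryonic stem cells in the undifferentiated state. PRDM14 and SALL4 work with this core, KLF4 can replace part of it in reprogramming, and ZFP42, DPPA4, TDGF1 and DNMT3B are genes whose transcripts mark undifferentiated human cells. In embryonal cells, Wnt ligands stabilise beta-catenin, which can turn on primitive streak genes as cells leave this state.

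With 1 library per group there was no replicate check, so no p-value or spread between replicates could be given, and each ratio compares libraries, not conditions. Ratios carry an exact binomial (Clopper-Pearson) 95% interval from the reads of both libraries. It covers counting error only, and no variation between cultures or library preparations. It also treats each read as a separate molecule, which reads that carry no molecular identifier need not be. A gene was called higher or lower when its log2(RPKM + 1) differed from Vector by at least 2-fold. The treated libraries held 18.3 M to 19.5 M reads, against 17.2 M reads in Vector. RIPK3 and RIPK4 were at 61.4 and 17.9 RPKM in their own libraries, against at most 0.0384 and 0 RPKM in the other 5. RIPK2 was at 27.4 RPKM in its own library, against at most 11.8 in the other 5. The excess of RIPK1 was the smallest, at 16.6 RPKM in its own library against at most 13.4 RPKM elsewhere.

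Of the 10 factors, SOX2 and PRDM14 had the largest log2(RPKM + 1) differences from Vector, both with Wnt3a. SOX2 was 3.09-fold lower with Wnt3a, 2.35-fold lower with RIPK2, 2.17-fold lower with RIPK3 and 1.9-fold lower with RIPK4, and PRDM14 was 2.26-fold lower with Wnt3a. DNMT3B was 1.65-fold lower with Wnt3a and within 1.19-fold of Vector in the 4 kinase libraries. DPPA4, at low levels, was 1.87-fold lower with Wnt3a. In the RIPK1 comparison, DPPA4 had the largest log2(RPKM + 1) difference of the 10 factors (-0.40). With RIPK4, DPPA4 (-0.54) and SALL4 (0.54) differed more than PRDM14 (-0.33). SALL4 was above Vector in all 5 libraries. POU5F1 was above Vector beyond counting error with RIPK3 and RIPK4, and within counting error of it with Wnt3a, RIPK1 and RIPK2. With the trend on transcript GC content subtracted, POU5F1 was below Vector with Wnt3a and RIPK2 (log2 differences -0.30 and -0.26). It was then nearly level with Vector with RIPK4 (-0.03). NANOG, KLF4, ZFP42 and TDGF1 were at or near 0 in every library, so 6 of the 10 were clearly expressed in these cells. In bulk RNA, fewer cells expressing a gene and less of its RNA per cell cannot be told apart.

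The sequence before the start site is shown for SOX2, the factor with the largest difference, for DNMT3B, which is expressed and differed little with the kinases, and for NANOG, the core factor close to 0. The promoter table used, from RefSeq (GRCh38.p14), had an entry for 7 of the 10 genes, and the POU5F1, PRDM14 and SALL4 promoters were not used here. Each run below gives the 250 bases before the start site on the gene's strand, at chr3:181711675-181711924 for SOX2, chr20:32779602-32779851 for DNMT3B and chr12:7789152-7789401 for NANOG, all on the plus strand. Capitals mark ATGCAAA or its reverse complement TTTGCAT, and ACAATG, the core of SOX binding sites.
SOX2: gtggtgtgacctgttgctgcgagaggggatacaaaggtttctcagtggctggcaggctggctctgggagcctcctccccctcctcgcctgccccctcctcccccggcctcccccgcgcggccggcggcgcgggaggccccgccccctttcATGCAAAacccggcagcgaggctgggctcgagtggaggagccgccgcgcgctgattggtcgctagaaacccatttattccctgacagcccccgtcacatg
DNMT3B: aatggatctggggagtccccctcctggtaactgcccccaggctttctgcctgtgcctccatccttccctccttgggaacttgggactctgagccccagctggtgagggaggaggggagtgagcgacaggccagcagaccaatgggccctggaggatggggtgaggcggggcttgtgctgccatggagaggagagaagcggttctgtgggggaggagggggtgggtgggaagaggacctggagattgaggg
NANOG: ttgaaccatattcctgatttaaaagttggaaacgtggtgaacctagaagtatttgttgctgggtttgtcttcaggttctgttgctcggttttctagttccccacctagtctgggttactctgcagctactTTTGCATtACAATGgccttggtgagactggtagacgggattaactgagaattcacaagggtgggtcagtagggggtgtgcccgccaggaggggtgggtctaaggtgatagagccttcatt

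In all, 6 motifs were searched on both strands of the 300-base promoters that run from 250 bases before to 50 after the start. They were the octamer bound by POU factors (ATGCAAAT), its looser form ATGCNAAT, the SOX core ACAATG, the TCF/LEF core CTTTGAT, the GC box GGGCGGG, and ATGCAAA, which is the octamer without its last base. The last was added after the sequences had been seen. Every ATGCAAAT match is also a match to ATGCNAAT and to ATGCAAA. The SOX2 promoter held ATGCAAA 100 bases before the start and a GC box on the other strand 113 bases before it. The NANOG promoter held ATGCAAA on the other strand 120 bases before the start, with 1 base between it and an ACAATG that began 112 bases before the start. The DNMT3B and DPPA4 promoters matched none of the 6 motifs. ZFP42 and KLF4 held GC boxes and none of the other motifs. The 2 TDGF1 promoters each held ACAATG and a GC box.

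Of all 35116 promoters in the table, 4.46% held ATGCAAA, 10.8% ACAATG, 33.1% the GC box, 2.62% CTTTGAT, 2.97% ATGCNAAT and 1.77% the full octamer. A match describes letters in this window and shows no binding, and the absence of a match says only that these letters are not in it. CTTTGAT, ATGCNAAT and the full octamer were in none of the 7 genes' promoters.

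SOX2, the high-mobility-group partner of OCT4 and also a factor of neural progenitors, was at 48.1 RPKM with Wnt3a, 133 with RIPK1, 63.2 with RIPK2, 68.5 with RIPK3 and 78.1 with RIPK4, against 149 RPKM in Vector. The values formed a high pair, RIPK1 and Vector, with the other 4 libraries well below it. No pair of neighbours in this order had a counting interval that held 1. The SOX2 values rested on about 2226 reads with Wnt3a, 6493 with RIPK1, 3049 with RIPK2, 3267 with RIPK3 and 3578 with RIPK4, against 6408 reads in Vector. These reads follow from a solved length of 2500 bases, where GENCODE transcripts have a median of 2513. As 369 lengths were accepted for SOX2, multiples included, the reads are approximate.

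**Figure D1:**
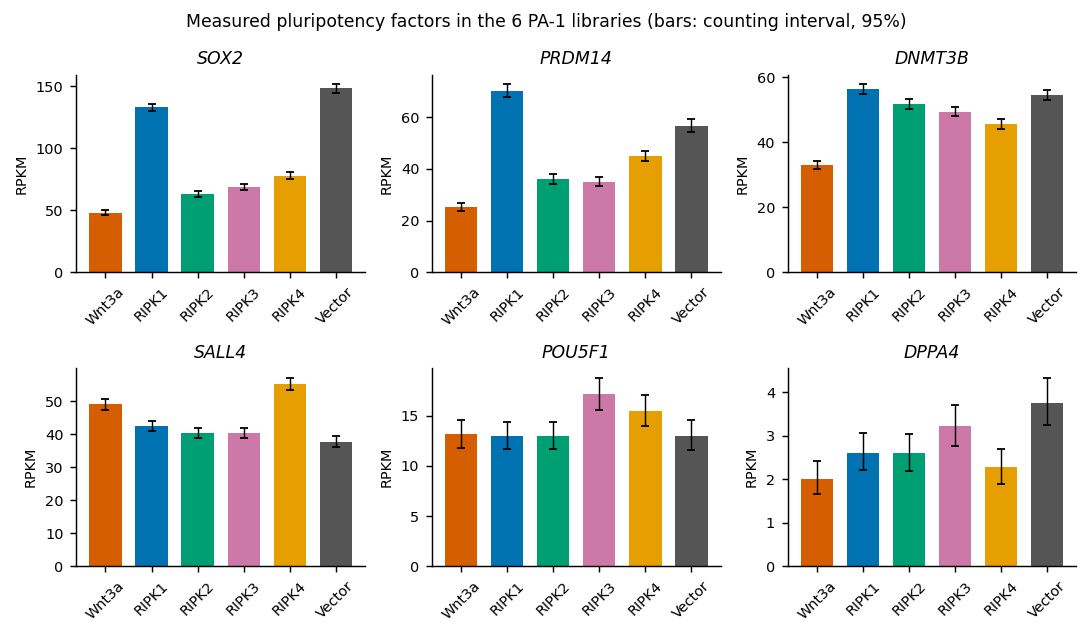
RPKM of the 6 factors that passed the filter, in each of the 6 libraries, with error bars for the 95% counting interval. SOX2 spans 48.1 RPKM with Wnt3a to 149 RPKM in Vector, PRDM14 spans 25.2 with Wnt3a to 70.3 with RIPK1, and POU5F1 stays between 13.0 and 17.2.

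SOX2 was 3.09-fold lower with Wnt3a than in Vector (interval 2.95 to 3.25), a log2(RPKM + 1) difference of -1.61. With RIPK2 it was 2.35-fold lower (2.25 to 2.45) and with RIPK3 2.17-fold lower (2.08 to 2.26). Among all genes tested, 25 were lower than SOX2 in the Wnt3a comparison, 31 in that of RIPK2 and 50 in that of RIPK3. With RIPK4 it was 1.9-fold lower (1.83 to 1.98), short of the call, with 61 genes lower. Set against the median of the other 5 libraries in place of Vector, SOX2 with RIPK4 was at a log2 difference of 0.19. That median is the RIPK3 value, itself low in SOX2, so the direction depends on whether a high or a low library is the reference. With RIPK1 it was 1.12-fold lower (1.08 to 1.16), and 2384 genes were lower. In rank by RPKM among all genes of a library, SOX2 stood at 1267 with Wnt3a, 295 with RIPK1, 827 with RIPK2, 775 with RIPK3 and 640 with RIPK4, against 250 in Vector.

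All 5 comparisons share the single Vector library, so a low or high value in it enters each of them. The 4 kinase plasmids shared amount and time, so the kinase libraries were also compared directly. SOX2 was 1.7 times as high with RIPK1 as with RIPK4 (1.64 to 1.78). With RIPK2 it was 1.24-fold lower than with RIPK4 (1.18 to 1.3), and with RIPK3 1.14-fold lower than with RIPK4 (1.09 to 1.2). RIPK3 and RIPK2 were close, with a ratio of 1.08 (1.03 to 1.14). RIPK4 stood 1.62 times above Wnt3a (1.54 to 1.71), a pair that also differed in collection time. Set against RIPK1 in place of Vector, a choice made after the data were seen, the log2 difference of SOX2 was -1.45 with Wnt3a, -1.06 with RIPK2, -0.95 with RIPK3 and -0.76 with RIPK4. The call with RIPK3 was lost there, and all 4 values stayed negative.

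SOX2 lies inside the span of SOX2-OT, a long non-coding gene on the same strand, so the reads of both genes cannot be told apart with certainty. SOX2-OT was far lower, at 0.86 RPKM with Wnt3a, 3.51 with RIPK1, 1.04 with RIPK2, 1.05 with RIPK3 and 1.72 with RIPK4, against 1.91 RPKM in Vector. It was highest with RIPK1, where SOX2 itself was below Vector. With Wnt3a, SOX2-OT was 2.22-fold lower (1.53 to 3.28), with RIPK2 1.84-fold lower (1.3 to 2.63) and with RIPK3 1.82-fold lower (1.29 to 2.61), and its ratio with RIPK4 was 0.899 (0.66 to 1.22).

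PRDM14, a PR-domain regulator that in human embryonic stem cells acts on the POU5F1 enhancer, was at 25.2 RPKM with Wnt3a, 70.3 with RIPK1, 36.1 with RIPK2, 35.0 with RIPK3 and 44.9 with RIPK4, against 56.8 RPKM in Vector. Wnt3a held the lowest value and RIPK1 the highest, above Vector. Against Vector, PRDM14 was 2.26-fold lower with Wnt3a (2.09 to 2.43), 1.57-fold lower with RIPK2 (1.47 to 1.68), 1.62-fold lower with RIPK3 (1.52 to 1.73) and 1.26-fold lower with RIPK4 (1.19 to 1.35). With RIPK1 the ratio was 1.24 (1.17 to 1.31).

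The call of PRDM14 as lower was made in the Wnt3a comparison, where 90 genes were lower still. RIPK2 and RIPK3 could not be separated by counting error, with a RIPK2 to RIPK3 ratio of 1.03 (0.958 to 1.11), and the other neighbours in its order could. Among the kinase libraries, PRDM14 was 1.57 times as high with RIPK1 as with RIPK4 (1.48 to 1.66), 1.24-fold lower with RIPK2 than with RIPK4 (1.16 to 1.33) and 1.28-fold lower with RIPK3 than with RIPK4 (1.2 to 1.37). RIPK4 stood 1.78 times above Wnt3a (1.65 to 1.93). With RIPK1 in place of Vector, the log2 difference of PRDM14 was -1.45 with Wnt3a, -0.94 with RIPK2, -0.99 with RIPK3 and -0.64 with RIPK4.

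DNMT3B, the de novo DNA methyltransferase of early embryonic cells, was at 33.1 RPKM with Wnt3a, 56.4 with RIPK1, 51.8 with RIPK2, 49.3 with RIPK3 and 45.6 with RIPK4, against 54.5 RPKM in Vector. Wnt3a stood apart at the low end, and the other 5 libraries lay close together. It was 1.65-fold lower with Wnt3a (1.57 to 1.73), 1.19-fold lower with RIPK4 (1.15 to 1.25), 1.1-fold lower with RIPK3 (1.06 to 1.15) and 1.05-fold lower with RIPK2 (1.01 to 1.1). With RIPK1 the ratio to Vector was 1.04 and its interval held 1 (0.996 to 1.08). RIPK4 stood 1.38 times above Wnt3a (1.32 to 1.45). DNMT3A, the other de novo methyltransferase, was at 26.3 RPKM with Wnt3a and 24.4 to 27.1 RPKM with the kinases, against 26.0 RPKM in Vector.

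SALL4, a zinc finger factor that binds with OCT4 and NANOG in embryonic stem cells, was at 49.1 RPKM with Wnt3a, 42.4 with RIPK1, 40.3 with RIPK2, 40.4 with RIPK3 and 55.2 with RIPK4, against 37.7 RPKM in Vector. Vector was the lowest of the 6 libraries, and RIPK4 and Wnt3a were the highest. The ratio to Vector was 1.46 with RIPK4 (1.39 to 1.54), 1.3 with Wnt3a (1.23 to 1.37) and 1.13 with RIPK1 (1.07 to 1.19). With RIPK2 and RIPK3 it was 1.07 each (1.01 to 1.13 for both). RIPK1, RIPK3 and RIPK2 were neighbours in its order that counting error could not separate. SALL4 was 1.37-fold lower with RIPK2 than with RIPK4 (1.3 to 1.44) and 1.3-fold lower with RIPK1 than with RIPK4 (1.24 to 1.37), and it was 1.12 times as high with RIPK4 as with Wnt3a (1.07 to 1.18). With RIPK1 in place of Vector, its log2 difference was -0.07 with both RIPK2 and RIPK3, against 0.09 and 0.10 from Vector, so the direction in those 2 libraries turned with the reference.

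POU5F1, which encodes OCT4, was at 13.2 RPKM with Wnt3a, 13.0 with RIPK1, 13.0 with RIPK2, 17.2 with RIPK3 and 15.5 with RIPK4, against 13.0 RPKM in Vector. RIPK3 and RIPK4 were the higher pair, and the other 4 libraries were nearly equal. The ratio to Vector was 1.32 with RIPK3 (1.14 to 1.52) and 1.19 with RIPK4 (1.02 to 1.38). With Wnt3a it was 1.01 (0.865 to 1.18), and with RIPK1 and RIPK2 0.997 (0.856 to 1.16 for both), so these intervals allow a ratio of up to 1.18. With the trend of all differences on transcript GC content subtracted, the log2 difference of POU5F1 was -0.30 with Wnt3a, -0.26 with RIPK2 and -0.03 with RIPK4. As deposited these were 0.01, -0.00 and 0.23. With RIPK3 it was 0.18 after subtraction. POU5F1 thus moved below Vector with Wnt3a and RIPK2, and its difference with RIPK4 was nearly lost. The gene length behind the POU5F1 values was not recovered, and its intervals use reads approximated from a GENCODE transcript of 1420 bases, about 319 in Vector. POU5F1 shares 248 exon bases with TCF19 on the opposite strand, which was at 1.39 to 1.57 RPKM, and the strand setting of the counting is not given in the sources used here. Its near copy POU5F1B was at 0.695 to 1.34 RPKM, so a part of the reads of either gene may belong to the other.

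DPPA4, a chromatin-associated protein of early embryonic and germ cells, was at 2.01 RPKM with Wnt3a, 2.61 with RIPK1, 2.59 with RIPK2, 3.21 with RIPK3 and 2.27 with RIPK4, against 3.76 RPKM in Vector. Vector was the highest library, and no neighbours in the order were separated by counting error. It was 1.87-fold lower with Wnt3a (1.47 to 2.38), 1.66-fold lower with RIPK4 (1.32 to 2.09), 1.45-fold lower with RIPK2 (1.17 to 1.81) and 1.44-fold lower with RIPK1 (1.16 to 1.79). With RIPK3 it was 1.17-fold lower, and that interval held 1 (0.954 to 1.44). With RIPK1 in place of Vector, the log2 difference of DPPA4 was 0.22 with RIPK3, where it was -0.18 from Vector.

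The remaining 4 factors were close to the limit of detection. NANOG, the homeodomain factor of the core, was at 0.103 RPKM with Wnt3a, 0.0977 with RIPK1, 0.148 with RIPK2, 0.225 with RIPK3 and 0.234 with RIPK4, against 0.221 RPKM in Vector, from 40 reads in all. The values lay between 4 and 9 reads a library, and each interval of the ratio to Vector held 1, as with Wnt3a (ratio 0.466, 0.103 to 1.74). Its near copies NANOGP1 and NANOGP8 were not found by symbol, and the counting rule is not known. If reads that match more than 1 place were left out, the NANOG values would be too low. KLF4, a zinc finger factor of the reprogramming set, had 6 reads with Wnt3a, 1 with RIPK1, 7 with RIPK2, 6 with RIPK3 and 4 with RIPK4, against 1 read in Vector. Its highest value was 0.113 RPKM with RIPK2 (ratio to Vector 6.26, 0.804 to 282), and no interval excluded 1.

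ZFP42, the zinc finger gene also known as REX1, had 4 reads with RIPK1, 1 with RIPK4 and 0 with Wnt3a, RIPK2 and RIPK3, against 0 in Vector. A count of 0 allows up to 0.0657 RPKM at this depth, taken as 3 reads in a library. TDGF1, the Nodal co-receptor cripto, was listed at 0 in all 6 libraries. Where each of its reads would have been counted, this allows up to 0.0939 RPKM. TDGF1 shares 110 exon bases with LRRC2 on the opposite strand, and LRRC2 was also listed at 0 in all 6 libraries. If the counting left out shared bases, this bound on TDGF1 would be too low, and the counting rule is not known. Its near copy TDGF1P3 was at 0.0189 RPKM with RIPK1 and at 0 in the others. Differences in these 4 genes were not detectable at this depth, other than as the bounds given.

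**Figure D2:**
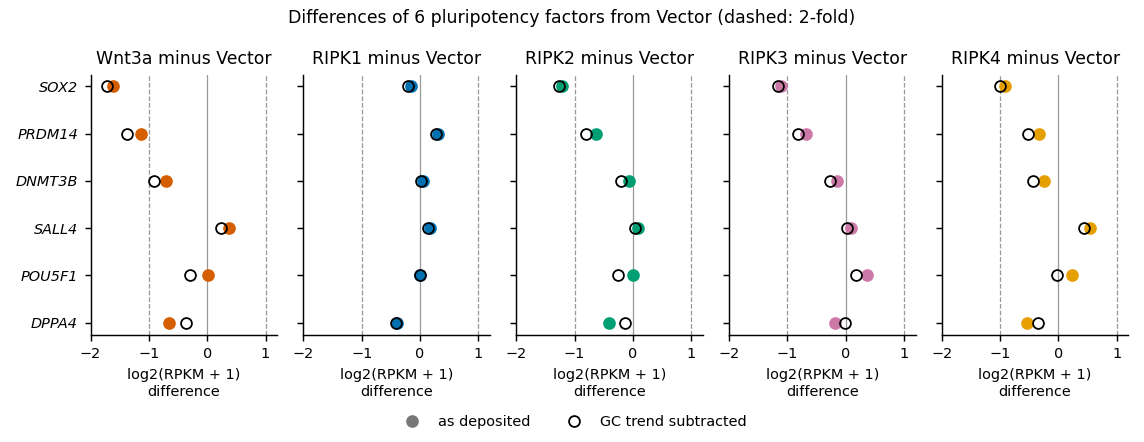
Difference in log2(RPKM + 1) from Vector for the 6 factors that passed the filter, in the 5 comparisons, with dashed lines at the 2-fold call. Filled points are as deposited, and open points have the GC trend subtracted. Among filled points, SOX2 passes the lower line with Wnt3a (-1.61), RIPK2 (-1.22) and RIPK3 (-1.11), and PRDM14 with Wnt3a (-1.14). Among open points, SOX2 with RIPK4 (-1.01) passes it as well. No factor passes the upper line.

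Counted over the 6 factors that passed the filter, SOX2 and PRDM14 made 2 lower calls with Wnt3a, where 1.43% of all 11881 genes tested were lower. SOX2 made 1 lower call with RIPK2 (0.699% of all genes were lower) and 1 with RIPK3 (0.581%). There were 0 lower calls with RIPK1 (0.547%) and 0 with RIPK4 (0.387%). No factor was called higher in any comparison, against 0.673% of all genes with Wnt3a, 0.295% with RIPK1, 1.59% with RIPK2, 1.47% with RIPK3 and 0.396% with RIPK4. The median log2(RPKM + 1) difference of the 6 was -0.68 with Wnt3a, 0.02 with RIPK1, -0.24 with RIPK2, -0.16 with RIPK3 and -0.29 with RIPK4. Over all genes tested the medians were 0.04, 0.01, -0.01, 0.02 and 0.05 in the same order. These counts describe 6 genes that passed a filter on level and do not stand for all 10.

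The balance between the OCT4 and SOX2 transcripts differed between libraries. SOX2 RPKM was 3.65 times that of POU5F1 with Wnt3a (3.26 to 4.1), 10.2 times with RIPK1 (9.21 to 11.4), 4.86 times with RIPK2 (4.36 to 5.44), 3.99 times with RIPK3 (3.62 to 4.41) and 5.05 times with RIPK4 (4.55 to 5.6), against 11.4 times in Vector (10.2 to 12.8). The intervals with Wnt3a, RIPK2, RIPK3 and RIPK4 lay below those with RIPK1 and in Vector. SOX2 RPKM was 0.98 times that of SALL4 with Wnt3a, 3.14 times with RIPK1, 1.57 times with RIPK2, 1.69 times with RIPK3 and 1.41 times with RIPK4, against 3.94 times in Vector. PRDM14 was 0.513 times SALL4 with Wnt3a, 1.66 times with RIPK1, 0.895 times with RIPK2, 0.866 times with RIPK3 and 0.813 times with RIPK4, against 1.51 times in Vector. These ratios are taken within a library and do not depend on its total. The GC trend was not removed from them, and SOX2 has 50.7% GC against 57.8% for POU5F1.

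**Figure D3:**
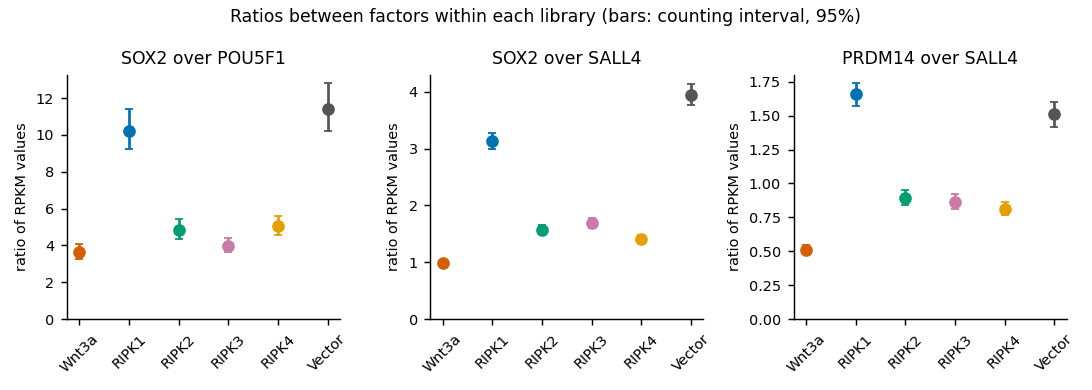
RPKM ratios within each library for SOX2 over POU5F1, SOX2 over SALL4 and PRDM14 over SALL4, with error bars for the 95% counting interval. SOX2 over POU5F1 is 10.2 with RIPK1 and 11.4 in Vector, and 3.65 to 5.05 in the other 4 libraries.

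Differences from Vector ran with the GC content of the transcript over all genes. Across 11779 genes, Spearman's rho between GC content and the log2 difference was 0.706 with Wnt3a, and across 11778 genes it was -0.083 with RIPK1, 0.674 with RIPK2, 0.553 with RIPK3 and 0.679 with RIPK4. This is a correlation across genes, which are not independent replicates. SOX2 has 50.7% GC, PRDM14 54.9%, DNMT3B 53.9%, SALL4 51.3%, POU5F1 57.8% and DPPA4 41.2%. With the trend subtracted, the log2 difference of SOX2 was -1.72 with Wnt3a, -0.20 with RIPK1, -1.26 with RIPK2, -1.16 with RIPK3 and -1.01 with RIPK4. SOX2 was thus as low or lower with the trend removed as without it, and the RIPK4 value passed the call. There it was 1 of 6 lower calls, where 0.331% of all genes were lower. The calls with Wnt3a (2 of 6, 0.832% of all genes lower), RIPK1 (0 of 6, 0.518%), RIPK2 (1 of 6, 0.365%) and RIPK3 (1 of 6, 0.45%) were the same in number as before. No factor was called higher, against 0.34% of all genes with Wnt3a, 0.229% with RIPK1, 1.05% with RIPK2, 1.07% with RIPK3 and 0.272% with RIPK4.

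The other 5 factors were also recomputed. PRDM14 was at -1.38 with Wnt3a, -0.81 with RIPK2, -0.82 with RIPK3 and -0.53 with RIPK4 with the trend subtracted, further from 0 than as deposited in each case. DNMT3B was at -0.92 with Wnt3a and -0.43 with RIPK4. The SALL4 difference was 0.24 with Wnt3a and 0.43 with RIPK4, still above 0. DPPA4 was at -0.37 with Wnt3a, -0.13 with RIPK2, -0.01 with RIPK3 and -0.35 with RIPK4, all nearer to 0.

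**Figure D4:**
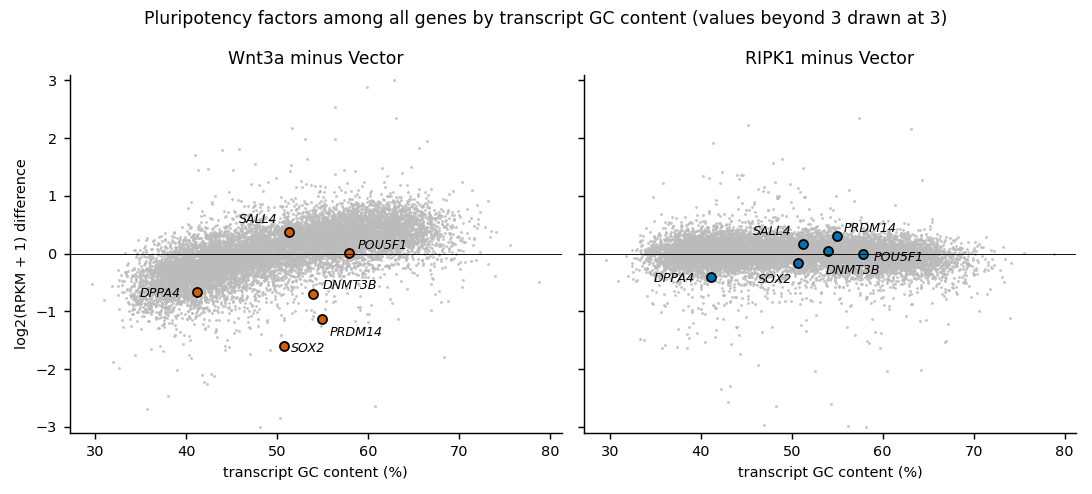
Difference in log2(RPKM + 1) from Vector against transcript GC content in percent, for each gene with a mean of at least 1 RPKM (grey) and the 6 factors (large points), with Wnt3a on the left and RIPK1 on the right. The genes slope upwards with GC content with Wnt3a (rho 0.706) and hardly with RIPK1 (rho -0.083), and SOX2, PRDM14 and DNMT3B lie below the band of genes of like GC content with Wnt3a.

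The genes whose levels over the 6 libraries were most like those of SOX2 were DEK, POLR3G and CCDC112. Likeness was the root mean square distance between log2(RPKM + 1) profiles, each centred on its own mean, over 8310 protein-coding genes with a mean of at least 5 RPKM. The distances were 0.103 for DEK, 0.118 for POLR3G and 0.142 for CCDC112, against a median of 0.59 over all genes compared. DEK, a chromatin protein, was at 51.1 RPKM with Wnt3a, 125 with RIPK1, 67.0 with RIPK2, 81.0 with RIPK3 and 79.8 with RIPK4, against 146 RPKM in Vector. Its order was close to that of SOX2, with RIPK1 and Vector on top. These 3 transcripts have 40.4%, 34.3% and 39.7% GC, below the 50.7% of SOX2, and all the profiles share the same 6 libraries.

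PRDM14 had FRAT2, an inhibitor of GSK3 in the Wnt pathway, ANGPT1 and EEA1 as its nearest profiles, at distances of 0.127, 0.128 and 0.148 against a median of 0.49. FRAT2 was at 7.64 RPKM with Wnt3a, 17.2 with RIPK1, 8.79 with RIPK2, 8.93 with RIPK3 and 13.1 with RIPK4, against 15 RPKM in Vector. The transcript of FRAT2 has 60.2% GC, that of ANGPT1 36.0% and that of EEA1 34.9%. Nearest profiles were also computed for NANOG, KLF4 and ZFP42, but with 40, 25 and 5 reads in all they are not given.

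**Figure D5:**
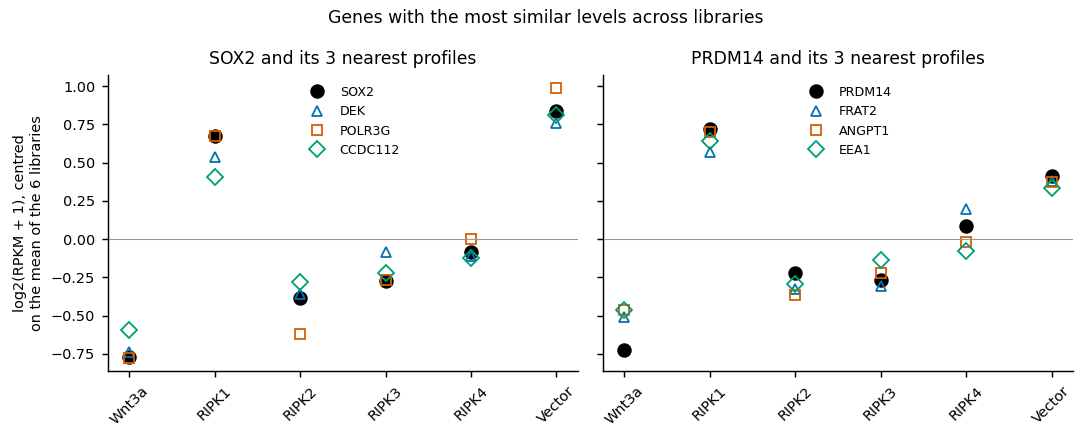
Levels as log2(RPKM + 1), centred on each gene's mean over the 6 libraries, for SOX2 (left) and PRDM14 (right) with the 3 genes nearest to each. SOX2 and its neighbours are high with RIPK1 and in Vector, and PRDM14 and its neighbours are highest with RIPK1 and lowest with Wnt3a.

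Among 32 other regulators of pluripotent and embryonal cells, 21 passed the filter. With Wnt3a 1 was called lower (1.43% of all genes were), with RIPK2 3 (0.699%), with RIPK3 2 (0.581%), and with RIPK1 (0.547%) and RIPK4 (0.387%) none, and 1 was called higher, with RIPK4 (0.396%). With the GC trend subtracted, 2 were called lower with Wnt3a (0.832% of all genes were), 4 with RIPK2 (0.365%) and 2 with RIPK3 (0.45%). In that setting 1 of the 21 was called higher, with RIPK4 (0.272%). As deposited, the median log2 difference of the 21 was -0.09 with Wnt3a, 0.01 with RIPK1, -0.14 with RIPK2, -0.08 with RIPK3 and 0.03 with RIPK4. POLR3G, an RNA polymerase III subunit abundant in undifferentiated cells, was at 14.1 RPKM with Wnt3a, 40.2 with RIPK1, 15.8 with RIPK2, 20.5 with RIPK3 and 24.8 with RIPK4, against 50.2 RPKM in Vector. It was called lower with Wnt3a (3.57-fold, 3.3 to 3.85), RIPK2 (3.17-fold, 2.95 to 3.41) and RIPK3 (2.45-fold, 2.29 to 2.61). The last of these calls ended with the GC trend subtracted, at a log2 difference of -0.92.

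MYCN, a MYC-family factor, was at 18.1 RPKM with Wnt3a, 16.6 with RIPK1, 6.85 with RIPK2, 7.52 with RIPK3 and 18.9 with RIPK4, against 16.4 RPKM in Vector. It was low in the RIPK2 and RIPK3 libraries, where it was called lower (2.39-fold, 2.11 to 2.73, and 2.18-fold, 1.92 to 2.48), while SOX2 was low with Wnt3a as well. TRIM71, a LIN-41 family repressor of mRNAs, was at 59.4 RPKM with Wnt3a, 53.7 with RIPK1, 55.5 with RIPK2, 52.6 with RIPK3 and 77.5 with RIPK4, against 31.4 RPKM in Vector. Like SALL4 it was lowest in Vector and highest with RIPK4, where it was called higher (ratio 2.47, 2.33 to 2.61).

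Of the Nodal and FGF ligands, co-receptors and receptors, 15 of 16 were in the table and 13 passed the filter. With Wnt3a 1 was called lower (1.43% of all genes), with RIPK2 1 (0.699%), with RIPK3 1 (0.581%), and with RIPK1 (0.547%) and RIPK4 (0.387%) none. None of the 13 was called higher in any comparison, against 0.295% (RIPK1) to 1.59% (RIPK2) of all genes. FGF2, the growth factor that maintains human embryonic stem cells in culture, was at 5.38 RPKM with Wnt3a, 11.5 with RIPK1, 7.65 with RIPK2, 8.77 with RIPK3 and 9.61 with RIPK4, against 13.1 RPKM in Vector. It was called lower with Wnt3a (2.44-fold, 2.23 to 2.68), but its log2 difference of -1.15 there became -0.69 with the GC trend subtracted, while that of LEFTY2, a Nodal inhibitor, went past the call, at -1.26 after subtraction and -0.92 before. FGFR2, an FGF receptor, was at 16.4 RPKM with Wnt3a, 27.5 with RIPK1, 9.85 with RIPK2, 10.4 with RIPK3 and 19.7 with RIPK4, against 22.1 RPKM in Vector, and was called lower with RIPK2 and RIPK3. FGF2 was lowest with Wnt3a and FGFR2 with RIPK2 and RIPK3.

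Of 8 other DNA methylation and demethylation genes, 7 passed the filter and 1 was called, higher with Wnt3a (0.673% of all genes were), UHRF1, which guides DNMT1 to newly copied DNA. It was at 34.9 RPKM with Wnt3a, 22.4 with RIPK1, 26.9 with RIPK2, 23.2 with RIPK3 and 28.2 with RIPK4, against 16.0 RPKM in Vector, where it was lowest. The call with Wnt3a (ratio 2.17, 2.03 to 2.33, log2 difference 1.07) was lost with the GC trend subtracted, at 0.84. Of 22 relatives of the factors by gene family, 14 passed the filter and 0 were called in any comparison. Over all genes, 0.295% (higher with RIPK1) to 1.59% (higher with RIPK2) were called per comparison and direction, so 0 of 14 is near that share. SALL1 and SALL2, family members of SALL4, were at 26.9 to 34.3 and 40.5 to 49.5 RPKM in the 5 treated libraries, against 25.8 and 41.9 RPKM in Vector. SOX3 and SOX1, the nearest relatives of SOX2, were at no more than 0.0781 RPKM and at 0.

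Of 10 surface markers of pluripotent cells, 8 passed the filter, and CDH1 and EPCAM, which mark pluripotent and epithelial cells, were at no more than 0.0673 and 0.162 RPKM. PODXL, the carrier of the TRA-1 antigens, was at 558 RPKM with Wnt3a and 399 to 628 RPKM with the kinases, against 564 RPKM in Vector. With Wnt3a, 4 of the 8 were below Vector and 4 above it, with a median log2 difference of 0.11, and 1 was called lower (1.43% of all genes), PROM1, at 8.05 RPKM against 21.3 RPKM in Vector. CD9, a tetraspanin, was at 7.63 RPKM with Wnt3a against 3.48 RPKM in Vector (ratio 2.19, 1.81 to 2.66), a log2(RPKM + 1) difference of 0.95 that reached a higher call at 1.06 with the GC trend subtracted. ALPL, an alkaline phosphatase, was at 51.6 RPKM with Wnt3a against 29.8 RPKM in Vector (ratio 1.73, 1.62 to 1.85). One was called lower with RIPK2 (0.699% of all genes) and with RIPK3 (0.581%), CD24, at 2.33 and 3.22 RPKM against 14.0 RPKM in Vector. LIN28A, an RNA-binding protein of the undifferentiated state, was at 337 RPKM with Wnt3a, 392 with RIPK1, 213 with RIPK2, 241 with RIPK3 and 356 with RIPK4, against 339 RPKM in Vector.

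Genes of other lineages were followed beside the factors. Of 13 mesendoderm genes in the table, 4 passed the filter. CDX1, CDX2 and MIXL1 reached a mean of 1 RPKM through the Wnt3a and RIPK4 libraries, in which they were high, so the filter itself picked them for a difference and no count of calls is read from this list. CDX2, a homeobox gene of the posterior embryo, was at 8.48 RPKM with Wnt3a, 0.466 with RIPK1, 0.298 with RIPK2, 0.276 with RIPK3 and 5.64 with RIPK4, against 0.638 RPKM in Vector. CDX1 was at 18.8 RPKM with Wnt3a and 7.61 with RIPK4, against 0.0327 in Vector from 1 read. MIXL1, a primitive streak homeobox gene, was at 3.71 RPKM with Wnt3a and 3.28 with RIPK4, against 0.332 RPKM in Vector. Of 15 neural progenitor genes, 6 passed the filter and 1 was called (0.699% of all genes were lower with RIPK2), MAP2, at 2.96 RPKM with RIPK2 against 7.34 RPKM in Vector, and the call did not hold once the GC trend was removed (log2 difference -0.82).

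Markers of other cell types were counted for the same libraries. The summed RPKM of 7 fibroblast and mesenchymal markers was 1862 with Wnt3a, 1531 with RIPK1, 2171 with RIPK2, 2158 with RIPK3 and 1776 with RIPK4, against 1652 in Vector, so it was above Vector in the 4 libraries with low SOX2. Most of it was VIM, which was at 1472 to 2043 RPKM in the treated libraries and at 1586 RPKM in Vector. Of the 7 markers, 4 passed the filter. COL1A1 alone was called, higher with RIPK2 (82.6 RPKM, 1.59% of all genes) and RIPK3 (83.0 RPKM, 1.47%), against 32.6 RPKM in Vector. With the GC trend subtracted the COL1A1 log2 difference was 0.99 with RIPK2 and 1.08 with RIPK3, so 1 call ended. DCN was at 0 in every library, and LUM and COL3A1 were at no more than 0.0485 and 0.108 RPKM. The part of these markers in the SOX2 result was not tested. The sums for 5 haematopoietic markers were 0.295 to 0.64 RPKM in the treated libraries against 0.281 in Vector, with 1 of 5 at 0 throughout. For 9 trophoblast and extraembryonic endoderm markers the sums were 24.4 to 30.8 RPKM against 29.5 in Vector, with 2 of 9 at 0 throughout. Of the 9, 3 passed the filter. GATA2 alone was called, higher with RIPK2 (4.26 RPKM, 1.59% of all genes) and RIPK3 (3.63 RPKM, 1.47%), against 1.22 RPKM in Vector. Those 2 calls ended with the GC trend subtracted, at log2 differences of 0.95 and 0.84. Germ cell markers summed to 4.92 to 5.72 RPKM in the treated libraries against 5.95 in Vector, and endothelial markers to 48.0 to 66.8 RPKM against 52.6 in Vector. Of the 7 markers fixed for pluripotent embryonal cells, TDGF1 was at 0 throughout, NANOG was at no more than 0.234 RPKM, and the sum was 432 RPKM with Wnt3a, 597 with RIPK1, 343 with RIPK2, 378 with RIPK3 and 496 with RIPK4, against 557 RPKM in Vector, mostly from LIN28A.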

How the data were processed

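RNA of 6 PA-1 libraries was sequenced by Illumina procedures, per the labels' protocols. The deposited table gives the authors' RPKM for 20494 genes, 1 column per library, per the file headers. GSNAP, DESeq and hg19 are named in the submitters' processing notes, while versions, roles, annotation and counting rule were not given in the sources used here. RPKM was used as deposited, with no scaling between libraries.

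Groups came from the sample labels. Library totals (17.2 M to 19.5 M reads) and gene lengths were recovered from the whole-read steps in the values, with a length solved for 8 of the 10 factors and for 96.1% of the 11881 genes with a mean of at least 1 RPKM. The median solved length was 1.102 times that of GENCODE 29 transcripts, which supplied GC content and the remaining lengths (GRCh38, no coordinates used). Recovered reads served for intervals and floors (3 reads) only. More than 1 length can be accepted for a gene (369 for SOX2, 103 for SALL4, 93 for PRDM14, multiples included), so reads and intervals are approximate there. Differences are log2(RPKM + 1) minus Vector, called at 2-fold, and the pseudocount of 1 understates the change of low genes. With 1 library per group no test was possible. Each kinase comparison leaves its own kinase out, giving 11880 genes. GC trends were fitted by lowess (span 0.3). Recovery and calls were tested on simulated data. Python 3.11.15, numpy 2.4.6, pandas 2.3.3, scipy 1.17.1 and statsmodels 0.14.6 were used, with 20382 gene identifiers matched to RefSeq and 112 unmatched.

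The factors, the gene lists and the alternatives were chosen with earlier results of these data known. All 10 factors are named, and of each other list at most the 6 genes furthest from Vector among those at least 2-fold apart in any comparison. A called gene of 1 list is not reported here. For factors whose highest RPKM is at least 2 times the lowest, the 3 nearest profiles are named, except for NANOG, KLF4 and ZFP42, which rest on too few reads (an exception made after their values were seen). Genes named beside these (LIN28A, DNMT3A, PODXL, CDH1, EPCAM, SALL1, SALL2, SOX1, SOX3, CD9, ALPL, LEFTY2, VIM, DCN, LUM and COL3A1) were chosen after their values were seen. Alternatives were a pseudocount of 0.1, no filter, median-ratio scaling, subtraction of the GC trend, and the median of the other 5 libraries or, added after the data were seen, RIPK1 in place of Vector.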

Additional observations from a re-analysis of the deposited data

How the results depend on the processing

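With 1 library per group, no alternative shows how far a second culture would differ, and counts for the 4 factors near 0 are limited by depth. No paired analysis was possible because each group has 1 library, so the shared number 1 pairs nothing. No called difference of a factor changed sign under any alternative run. With the median of the other 5 libraries in place of Vector, the lower calls fell to 0 with Wnt3a, 0 with RIPK2 and 0 with RIPK3 (SOX2 at -0.69, -0.30 and -0.19, PRDM14 with Wnt3a at -0.81), differences with RIPK4 that were below 0 against Vector were above it (SOX2 0.19, PRDM14 0.31), SOX2 with RIPK1 was at 0.95, and the medians of the factors were -0.45 with Wnt3a, 0.13 with RIPK1, -0.04 with RIPK2, -0.07 with RIPK3 and 0.21 with RIPK4. That alternative puts the low libraries into their own reference. With RIPK1 in place of Vector, chosen after the data were seen, the lower calls were 0 with RIPK3 and the medians were -0.51 with Wnt3a and -0.10 with RIPK2. With the GC trend subtracted, RIPK4 had 1 lower call and a median of -0.39. A pseudocount of 0.1 gave a median of -0.79 with Wnt3a. With no filter on level, the medians over all 10 factors were -0.07 with Wnt3a, -0.04 with RIPK2, 0.00 with RIPK3 and 0.01 with RIPK4, since 4 of the 10 are near 0. Of the 42 single-factor differences, all 42 kept their call and moved by no more than counting error under a pseudocount of 0.1, and 40 did under median-ratio scaling. So did 15 of 30 with the GC trend subtracted (14 moved further and 1 gained a call) and 17 of 33 against RIPK1 (15 moved further and 1 lost its call). Against the median of the other 5 libraries 17 of 42 did (21 moved further and 4 lost their call). The 42 and the 33 include NANOG, KLF4 and ZFP42, whose few reads give intervals too wide for such a move to show. All 17 that held against that median were of these genes or POU5F1. The 17 that held against RIPK1 were of these genes, POU5F1 or DNMT3B.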
